A study of Mus musculus with 15 samples.

Results

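The genes described here are 8 regulators of the primitive streak and of early mesoderm in the mouse: T (Brachyury), Eomes, Mixl1, Gsc, Mesp1, Tbx6, Hand1 and Hes7. They were chosen by symbol, as genes known from development, and are 8 of the 22035 genes in the deposited gene table, where they hold 9 transcripts. In the H3K4me3 table they hold 12 windows of 1 kb, and 15 of the 98085 randomly placed 2 kb bins lie within 20 kb of one of them. The 15 bins comprise 4 near Eomes, 4 near Mesp1, 2 each near Mixl1, Gsc and Hand1, 1 near Tbx6 and 0 near T and Hes7.

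The study tested native ChIP-seq, in which chromatin is cut and immunoprecipitated without crosslinking, on small numbers of sorted cells. All 15 libraries came from 1 line, wildtype male TT2 embryonic stem cells of a C57BL/6 x CBA cross, derived from the inner cell mass of the blastocyst, and no treatment or second genotype was named. The libraries of H3K27me3 (Diagenode antibody) were made once each from 1000, 10000 and 100000 cells. Those of H3K4me3 (Abcam antibody) were made once each from 5000, 10000 and 100000 cells. Those of H3K9me3 (Active Motif antibody) were made from 1000 cells in 3 libraries (a, b and c) and once each from 10000, 100000 and 1000000 cells. Histone H3 whatever its modification (panH3, Sigma antibody), which follows nucleosome density, was measured in 2 libraries of 1000 cells (a and b). RNA depleted of ribosomal RNA was measured in 1 library of 1000 cells. Nothing in the labels tells whether libraries a, b and c stem from different cultures. The p-values below therefore measure only the spread between these libraries, which may be technical.

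The primitive streak is the site of the epiblast at which cells leave the surface layer to become mesoderm and endoderm. T and Eomes encode T-box transcription factors that act at the streak, where Nodal and Wnt signals induce them. Mixl1 and Gsc encode homeobox factors of the streak and, for Gsc, of its anterior end. Mesp1, a basic helix-loop-helix factor, marks the first mesoderm that gives rise to the heart. Tbx6 is a T-box factor of paraxial mesoderm, and Hes7 a helix-loop-helix repressor whose transcription oscillates in the segmentation clock of the presomitic mesoderm. Hand1 is a helix-loop-helix factor of extraembryonic and lateral mesoderm and of the heart. In pluripotent cells many such developmental genes carry H3K27me3, the mark of Polycomb repressive complex 2, together with H3K4me3, a mark of promoters, a state known as bivalent. Genes in this state are little transcribed.

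Promoters rich in CpG dinucleotides are the usual sites of both marks, so the bases upstream of the start are shown first for 5 of the genes that differ in CpG content and in H3K27me3. Promoter sequences from RefSeq (GRCm38.p6) were matched by symbol for 6 of the 8 genes, all but Mixl1 and Hand1. Each line gives the 250 bases before the start of transcription, 5′ to 3′ on the strand of the gene, with every CpG in capitals. The windows are chr17:8434173-8434422 on the plus strand for T, chr11:69120203-69120452 on the plus strand for Hes7, chr12:104473237-104473486 on the minus strand for Gsc, chr7:79793591-79793840 on the minus strand for Mesp1 and chr7:126781233-126781482 on the plus strand for Tbx6.
T: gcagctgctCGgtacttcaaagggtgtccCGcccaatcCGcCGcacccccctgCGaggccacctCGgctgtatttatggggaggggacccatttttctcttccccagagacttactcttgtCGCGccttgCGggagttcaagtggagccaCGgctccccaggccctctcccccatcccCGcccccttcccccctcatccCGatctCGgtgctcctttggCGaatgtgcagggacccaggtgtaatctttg
Hes7: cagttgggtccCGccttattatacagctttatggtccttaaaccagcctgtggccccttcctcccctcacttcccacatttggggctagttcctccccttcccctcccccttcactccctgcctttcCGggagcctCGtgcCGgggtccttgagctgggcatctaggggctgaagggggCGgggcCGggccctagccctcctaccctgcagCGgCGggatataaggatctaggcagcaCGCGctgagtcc
Gsc: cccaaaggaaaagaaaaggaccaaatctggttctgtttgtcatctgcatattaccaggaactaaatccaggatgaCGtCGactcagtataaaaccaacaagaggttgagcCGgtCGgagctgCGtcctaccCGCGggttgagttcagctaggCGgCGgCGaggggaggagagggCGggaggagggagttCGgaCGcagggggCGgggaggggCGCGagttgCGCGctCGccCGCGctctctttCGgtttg
Mesp1: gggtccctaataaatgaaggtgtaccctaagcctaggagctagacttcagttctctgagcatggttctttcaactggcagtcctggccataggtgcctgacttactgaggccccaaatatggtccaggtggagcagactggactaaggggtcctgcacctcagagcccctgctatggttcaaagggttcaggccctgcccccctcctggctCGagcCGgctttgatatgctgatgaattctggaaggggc
Tbx6: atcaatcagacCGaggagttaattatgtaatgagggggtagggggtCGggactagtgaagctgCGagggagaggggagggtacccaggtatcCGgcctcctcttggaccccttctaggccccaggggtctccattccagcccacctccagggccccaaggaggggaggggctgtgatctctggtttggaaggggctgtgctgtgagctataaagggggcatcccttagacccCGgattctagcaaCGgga
The Gsc window held 22 CpG, that of T 14, of Hes7 10, of Eomes 8, of Tbx6 6 and of Mesp1 2, against a median of 6 over all 32851 promoters of the table. The Gsc and Mesp1 windows thus lie at opposite ends, with more CpG than 85.2% and 18.8% of all promoters. Their G+C contents lie closer together, at 59.2% and 55.2%, against a median of 52.4% over all promoters.

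Short motifs were counted on both strands of the same 250 bases. The T-box core GGTGTGA was in 0 of the 6 windows and in 3.33% of all promoters. The letters CTTTGA, the core bound by TCF and LEF factors of the Wnt pathway, were found 1 time upstream of T and 2 times upstream of Mesp1, and in 13.8% of all promoters. The letters GTGGGAA, a core of the Notch effector RBPJ, were found 1 time upstream of Hes7 and in 5.42% of all promoters. The E-box CANNTG, the site class of helix-loop-helix factors, occurred 3 times upstream of T, 2 times each upstream of Mesp1 and Hes7 and 1 time upstream of Gsc, and is in 66.2% of all promoters. TATAAA was found upstream of Gsc and of Tbx6, 1 time each, and in 12.4% of all promoters. These matches describe letters in the windows and show no binding.

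In the deposited files, which use mm9, T (NM_009309) lies on chromosome 17 at 8627287 to 8635361 on the plus strand and Eomes (NM_001164789 and NM_010136) on chromosome 9 at 118387304 to 118395248 on the plus strand. Mixl1 (NM_013729) lies on chromosome 1 at 182623184 to 182627168 on the minus strand and Gsc (NM_010351) on chromosome 12 at 105709416 to 105711448 on the minus strand. Mesp1 (NM_008588) lies at 86937128 to 86938480 on the minus strand and Tbx6 (NM_011538) at 133924992 to 133929064 on the plus strand of chromosome 7. Hand1 (NM_008213) lies at 57642216 to 57645648 on the minus strand and Hes7 (NM_033041) at 68933952 to 68936760 on the plus strand of chromosome 11. Positions in the gene table are rounded, in that every start beyond 67 Mb is a multiple of 8, so distances from a start are good to a few bases.

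Values are RPKM, reads scaled to the length of the window in kb and to the depth of the library in M reads. Depths recovered from the steps between low values ran from 13.02 to 45.52 M reads in the libraries of the bin table and were 1.86, 1.07 and 16.6 M reads for H3K4me3 at 5000, 10000 and 100000 cells. A single read in a 1 kb window was thus worth 0.539, 0.938 and 0.0601 RPKM in the H3K4me3 libraries, so their low values at 5000 and 10000 cells rest on a handful of reads. In RNA, 10 of 10 stem cell markers had at least 1 RPKM, between 10.73 for Klf2 and 221.81 for Zfp42. Of other cell types, 0 of 7 markers of later mesoderm and 0 of 7 of endoderm reached 1 RPKM, with summed levels of 0.93 and 2.14 RPKM. Of 7 neural markers 2 did (Tubb3 25.66 and Nes 1.55 RPKM), and of 11 fibroblast markers 2 did (Fn1 38.45 and Thy1 1.79 RPKM), while Col3a1, Postn, Lum, Dcn and S100a4 were listed at 0. All libraries of the bin table had higher values on chromosomes 1, 8 and 11, by 1.32 to 1.70 times the median of the other autosomes, which themselves spanned 0.882 to 1.18. This touches Mixl1 on chromosome 1 and Hand1 and Hes7 on chromosome 11.

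RNA of all 8 genes was low in 1000 cells. T had 0.09 RPKM, Hes7 0.20, Hand1 0.24, Gsc 0.26, Mesp1 and Mixl1 0.29 each, Tbx6 0.34 and Eomes 0.38 RPKM (0.37 for its other transcript). The median of the 8 was 0.275 RPKM against 1.02 RPKM over all genes, and 8 of 8 lay under 1 RPKM, as did 49.8% of all genes. None of the 8 was listed at 0, as 20.9% of all genes were, and their levels lay between the 30.1st percentile (T) and the 40.8th (Eomes). With 1 library, the order among the 8 has no replicate check. In a bulk sample fewer cells with a transcript and less RNA per cell cannot be told apart. Tbx6 ends 320 bases from Ppp4c, a phosphatase subunit gene on the other strand with 33.97 RPKM, and strand-specific counting is not given in the sources used here, so the part of reads from Ppp4c in the Tbx6 value was not tested. Lin9, a cell cycle gene 2368 bases from Mixl1, had 10.97 RPKM.

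**Figure D1:**
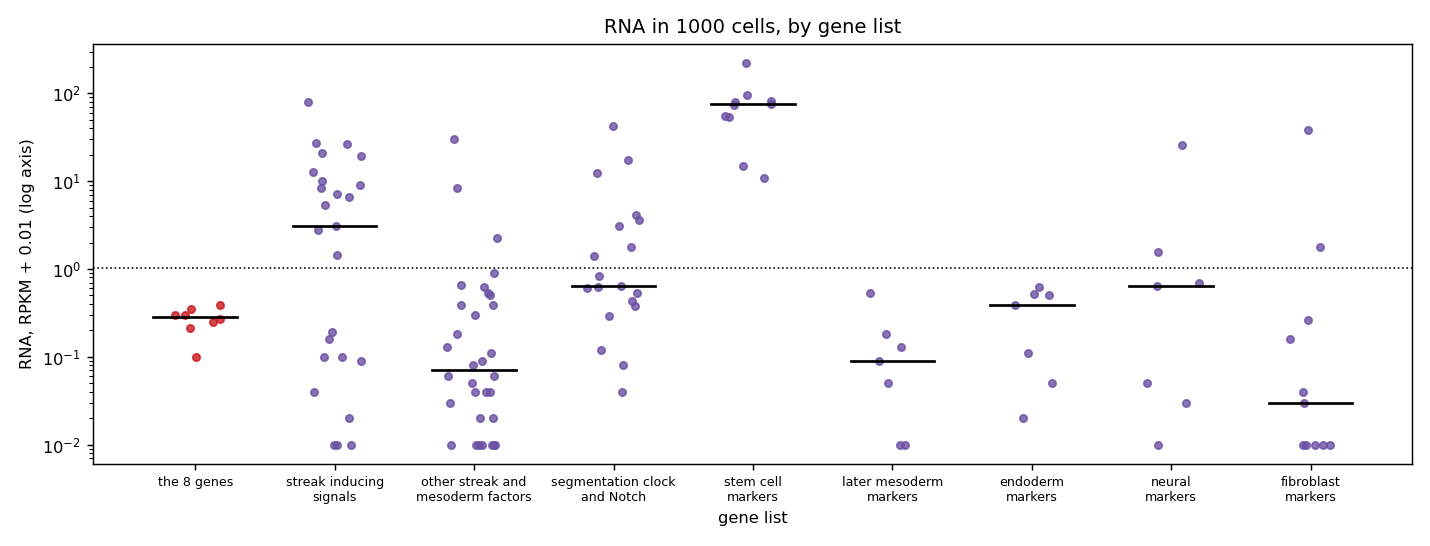
RNA level (RPKM + 0.01, log axis) in the 1 library of 1000 cells, each point a gene and each short line the median of its list; the dotted line is the median of all genes, 1.02 RPKM. The 8 genes (left, red) lie between 0.09 and 0.38 RPKM, while the stem cell markers lie between 10.73 and 221.81 RPKM.

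H3K27me3 within 1 kb of the start site divided the 8 genes in a high set of 6 and a low set of 2. The 6 genes Hes7, Gsc, Hand1, Mesp1, Eomes and T had 1.69 to 4.52 RPKM at 100000 cells, 6.04 to 16.1 times the median of all genes, whereas Mixl1 and Tbx6 lay near that median. At least 1 RPKM was reached by 5 of the 8 at 1000 cells, by 6 at 10000 and by 6 at 100000, against 5.25%, 11% and 9.55% of all genes. The median of the 8 was 1.14, 2.53 and 2.15 RPKM at 1000, 10000 and 100000 cells, against 0.31, 0.28 and 0.28 RPKM over all genes.

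Hes7, the clock repressor, had the highest value of the 8 in each library, with 2.89, 4.79 and 4.52 RPKM at 1000, 10000 and 100000 cells. At 100000 cells this was about 178 reads (exact Poisson 95% interval 3.89 to 5.24 RPKM) and the 99.98th percentile of all genes. All intervals given here cover counting error only. Gsc, the homeobox factor, had 1.89, 3.16 and 2.56 RPKM, the last with an interval of 2.09 to 3.12. Hand1 had 1.20, 3.04 and 2.54 RPKM, the last with an interval of 2.07 to 3.09. The intervals of Gsc and Hand1 overlapped, and both lay at the 98.8th percentile at 100000 cells.

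Mesp1 had 1.59, 2.60 and 2.24 RPKM at 1000, 10000 and 100000 cells, the last with an interval of 1.80 to 2.76. The T-box gene Eomes had 1.08, 2.46 and 2.05 RPKM, the last with an interval of 1.64 to 2.56, and T had 0.87, 2.02 and 1.69 RPKM, the last with an interval of 1.30 to 2.14. The intervals of Mesp1, Eomes and T overlapped, at the 98.1st, 97.6th and 96.2nd percentiles of all genes. Mesp1 with 2 CpG and Gsc with 22 in the windows printed above had overlapping intervals of H3K27me3. Those windows hold only bases upstream of the start, whereas H3K27me3 was read on both sides of it. Whether H3K27me3 follows CpG content was therefore not tested.

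Tbx6, another T-box gene, stood apart from T and Eomes. It had 0.34, 0.22 and 0.23 RPKM at 1000, 10000 and 100000 cells, the last from about 9 reads with an interval of 0.105 to 0.435, at the 42.6th percentile. Mixl1 had 0.61, 0.36 and 0.38 RPKM, the last from about 15 reads with an interval of 0.214 to 0.629, at the 61.1st percentile. The all-gene median of 0.28 RPKM lies inside both intervals. In the order of levels at 100000 cells only 2 neighbouring pairs had intervals that did not overlap, Hes7 above Gsc and T above Mixl1.

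The level of the chromosome moved part of this order. After division by the panH3 level of the chromosome, an alternative chosen after seeing the data, Hes7 had 2.94 RPKM (interval 2.53 to 3.41) and Gsc 2.62 RPKM (2.14 to 3.20) at 100000 cells, so that their intervals overlapped. At 1000 and 10000 cells Gsc then had 1.94 and 3.24 RPKM against 1.88 and 3.12 RPKM for Hes7. Hand1 came to 1.65 RPKM, beside T at 1.69 RPKM, and Mixl1 to 0.255 RPKM. The 6 high and 2 low genes at 100000 cells remained as they were.

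**Figure D2:**
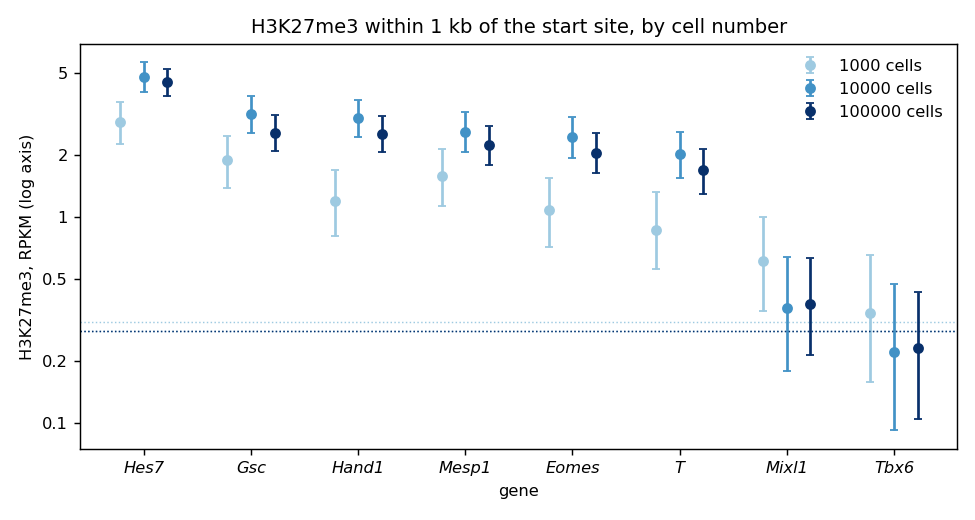
H3K27me3 (RPKM, log axis) within 1 kb of the start site of each gene, ordered by the level at 100000 cells; points are single libraries of 1000, 10000 and 100000 cells, bars are exact Poisson 95% intervals of the approximate reads, and dotted lines are the medians of all genes. 6 genes lie at 1.69 RPKM or higher at 100000 cells, and Mixl1 and Tbx6 lie at 0.38 and 0.23 RPKM.

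How far the signal at these genes differed between cell numbers was read from the same libraries. With 1 library per cell number, an effect of cell number and a difference between libraries cannot be told apart. At 1000 cells the 6 genes with high H3K27me3 all had lower values than at 100000 cells. The ratio of 1000 over 100000 cells was 0.472 for Hand1 (95% interval 0.302 to 0.707), 0.515 for T (0.312 to 0.857), 0.527 for Eomes (0.327 to 0.811) and 0.639 for Hes7 (0.479 to 0.838). For these 4 genes the interval lay below 1, while Mesp1 at 0.710 (0.473 to 1.03) and Gsc at 0.738 (0.510 to 1.04) had intervals that reach it. Mixl1 at 1.61 (0.746 to 3.50) and Tbx6 at 1.48 (0.531 to 4.29) rested on few reads and were not distinguishable from no difference.

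On the scale of log2(RPKM + 0.1), 4 of the 8 genes were lower at 1000 than at 100000 cells by at least 1.5-fold, against 15.4% of all genes. These 4 are among the 6 that averaged 1 RPKM or more, and of all 1856 genes at that level 52.3% were lower by that much. The median difference was -0.75 over these 6 genes, against -0.60 over the 1856, and -0.55 over the 8 genes, against 0.03 over all genes. 0 of the 8 were higher by at least 1.5-fold on this scale, against 18.2% of all genes.

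At 10000 cells the genes were close to their values at 100000 cells. The 8 ratios of 10000 over 100000 cells lay between 0.947 and 1.23, and each interval contained 1. 0 of the 8 differed by at least 1.5-fold, against 12.3% of all genes lower and 10.3% higher, and 0.377% lower and 3.07% higher of those that averaged 1 RPKM or more. The 2 T-box genes T and Eomes had ratios of 1.20 each, with intervals of 0.839 to 1.73 and 0.857 to 1.65.

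Reads of H3K4me3 were counted at the start sites of all 8 genes at 100000 cells. Levels were in the middle range of all genes for 6 of them and higher for Eomes and Mixl1. No background level was set against these reads, so presence of the mark was not tested. The all-gene medians were 2.15, 3.75 and 1.39 RPKM at 5000, 10000 and 100000 cells. 4, 3 and 6 of the 8 genes lay above them, which is near the share that a median sets. The highest values in the table were 49.55, 99.38 and 49.21 RPKM. Percentiles of H3K4me3 refer to its 25727 genes, each represented by its window with the highest mean.

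Mixl1, low in H3K27me3, had 7.54, 21.56 and 3.85 RPKM of H3K4me3 at 5000, 10000 and 100000 cells, from 14, 23 and 64 reads, at the 71.1st percentile at 100000 cells. Eomes had 3 overlapping windows that differed. Centred 26 bases past the start, the first had 2.69, 3.75 and 0.90 RPKM. Centred 158 bases past it, the second had 7.54, 14.06 and 2.11 RPKM, and centred 675 bases past it, the last had 11.31, 21.56 and 4.64 RPKM. In each library the Eomes signal was thus greater in the windows that reach further into the gene, and at 100000 cells the intervals of the first (0.505 to 1.49) and last (3.65 to 5.79) windows did not overlap.

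The other 6 genes had fewer reads. Mesp1 had 2.69, 3.75 and 1.87 RPKM and Gsc 2.69, 3.75 and 1.63 RPKM at 5000, 10000 and 100000 cells, from 5 and 4 reads each in the smaller libraries. Hes7 had 1.08, 3.75 and 1.57 RPKM, and T had 0.54, 4.69 and 1.51 RPKM in the window centred at its start and 0, 0.94 and 1.39 RPKM in that centred 503 bases past it. These 4 genes lay between the 51st and 54.6th percentiles at 100000 cells. Hand1 had 0.54, 1.88 and 1.81 RPKM in the window centred at its start, and 0.54, 2.81 and 1.20 RPKM in the one centred at -672 bases, which stands for the gene in the counts because its mean over the libraries is higher. Tbx6 had 0, 2.81 and 0.90 RPKM, the last from 15 reads at the 41.5th percentile. The 0 reads of Tbx6 at 5000 cells allow a level of up to 1.62 RPKM (3 reads; the two-sided Poisson interval that is plotted reaches 1.99 RPKM), above its value at 100000 cells, so a loss of the mark was not detectable at this depth.

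**Figure D3:**
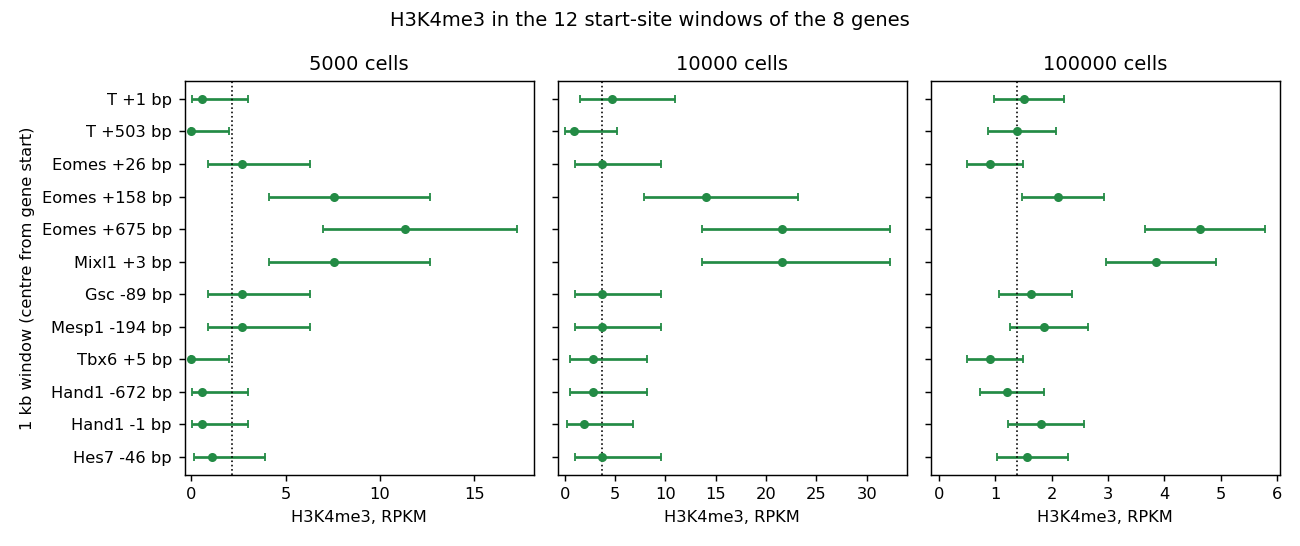
H3K4me3 (RPKM) in the 12 windows of 1 kb of the 8 genes in single libraries of 5000, 10000 and 100000 cells (panels, each with its own axis); labels give the distance of the window centre from the start, bars are exact Poisson 95% intervals, and dotted lines are the all-gene medians of 2.15, 3.75 and 1.39 RPKM. Mixl1 and the Eomes windows at 158 and 675 bases have the 3 highest values in each panel.

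Between cell numbers the whole H3K4me3 table shifted, by a median of 0.80 at 5000 and 1.55 at 10000 cells against 100000 cells on the log2(RPKM + 0.1) scale. The 8 genes had medians of 0.00 and 1.37, or -0.48 and -0.20 once each library was centred on its own median. At 5000 cells 3 of the 8 were higher by at least 1.5-fold, against 56.9% of all genes, and 3 were lower, against 22.8%. At 10000 cells 8 of 8 were higher, against 64.3% of all genes, and 0 lower, against 28.6%. The interval of the ratio of 10000 over 100000 cells contained 1 for every window of T, Gsc, Mesp1, Tbx6, Hand1 and Hes7. It lay above 1 for Mixl1 (5.60, interval 3.32 to 9.15) and for the Eomes windows. The Hand1 window at its start, which does not stand for the gene, was not higher by that fold (1.88 against 1.81 RPKM). The ratio of 5000 over 100000 cells had an interval above 1 for Mixl1 (1.96, interval 1.01 to 3.53). So did the Eomes windows 158 bases (3.58, interval 1.78 to 6.83) and 675 bases past the start (2.44, interval 1.43 to 4.0). For no window of T, Gsc, Mesp1, Tbx6, Hand1 or Hes7 did the interval lie off 1. Ratios at 5000 and at 10000 cells carry the shift of the whole table, so an interval above 1 does not set a window apart from other genes.

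Read together at 100000 cells, the marks placed the genes in 4 classes. T, Eomes, Gsc, Mesp1 and Hes7 had at least 1 RPKM of H3K27me3 and H3K4me3 above the all-gene median, the pairing of marks that bivalent promoters carry. This was 5 of the 8 genes, against 5.31% of the 20317 genes in both tables, and the rule was set after the values were seen. By H3K27me3 alone, 6 of the 8 reached 1 RPKM, against 9.55% of all genes. Of all genes 2104 met the H3K27me3 rule, and 1078 of the genes in both tables met both rules. Whether the 8 genes exceed other genes with H3K27me3 in the pairing was not tested. For T, Gsc, Mesp1 and Hes7 the counting interval of H3K4me3 contains the all-gene median of 1.39 RPKM, so that at this depth they were not distinguishable from it. Hand1 had H3K27me3 with H3K4me3 of 1.20 RPKM, under the median, although its window at the start itself had 1.81 RPKM. Mixl1 had H3K4me3 with 0.38 RPKM of H3K27me3, and Tbx6 reached neither level. The H3K4me3 intervals of Hand1 (0.735 to 1.86 RPKM) and of Tbx6 (0.505 to 1.49 RPKM) also contain the all-gene median. By H3K4me3, counts therefore do not set Hand1 and Tbx6 apart from T, Gsc, Mesp1 and Hes7. Unlike H3K27me3, H3K4me3 was not divided by the panH3 level of the chromosome. That level, relative to other autosomes, was 1.49 for Mixl1 and 1.54 for Hand1 and Hes7. Whether Mixl1, Hand1 and Hes7 keep their classes with H3K4me3 scaled in this way was not tested. With the mean over the windows of a gene the count was 6, and with the window nearest the start, an alternative chosen after seeing the data, it was 5, then with Hand1 above and Eomes, at 0.90 RPKM, below the median. In bulk chromatin, both marks on 1 copy of a gene and each mark on different copies cannot be told apart.

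**Figure D4:**
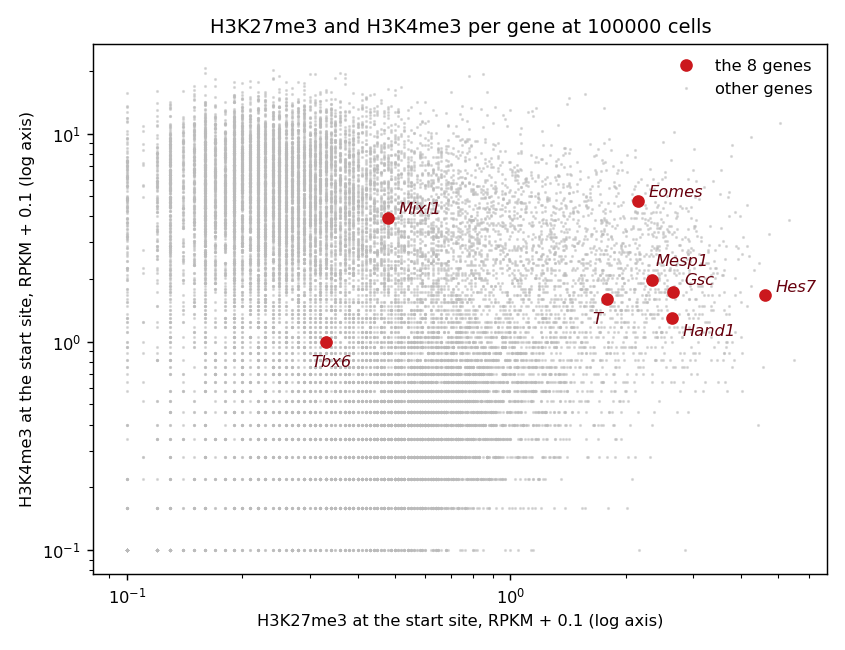
H3K27me3 against H3K4me3 at the start site (RPKM + 0.1, both axes log), in the libraries of 100000 cells, for the 20317 genes in both tables, with the 8 genes in red. Eomes combines 2.05 RPKM of H3K27me3 with 4.64 RPKM of H3K4me3, and Mixl1 has H3K4me3 of 3.85 RPKM with 0.38 RPKM of H3K27me3. Tbx6 has 0.23 RPKM of H3K27me3 and 0.90 RPKM of H3K4me3.

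Around the genes, the random bins gave H3K27me3, H3K9me3 and panH3 in the same 2 kb, as RPKM. Each library is scaled to its own depth, so the marks are not compared on an absolute scale. Eomes showed the steepest change with distance: the bin centred 13.7 kb downstream of its start had 1.27, 2.19 and 1.73 RPKM of H3K27me3 at 1000, 10000 and 100000 cells. At 17.7 kb it was 0.46, 0.13 and 0.15 RPKM and at 27.7 kb, at the start of Golga4, 0.31, 0.13 and 0.23 RPKM. The bin at 11.7 kb had 0.61, 0.88 and 0.81 RPKM. The signal past Eomes was therefore above the all-bin medians of 0.38, 0.36 and 0.36 RPKM in the bins at 11.7 and 13.7 kb, and below them at 27.7 kb, in each library.

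Near Mesp1 the bin centred at -16.5 kb (upstream), which covers the start of the related gene Mesp2, a segmentation factor, had 1.69, 2.84 and 2.29 RPKM of H3K27me3. The Mesp2 start site itself had 1.71, 2.55 and 2.12 RPKM in the gene table, close to Mesp1. The bin 3.5 kb downstream of the Mesp1 start had 0.77, 1.80 and 1.37 RPKM, and those at 19.5 and 21.5 kb, inside Wdr93, had 0.38, 0.91 and 0.84 and 0.38, 0.42 and 0.43 RPKM. H3K27me3 thus lay on both sides of Mesp1 and was lower further downstream.

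The Gsc bin 18.4 kb downstream, in no gene of the table, had 0.81, 2.03 and 2.29 RPKM of H3K27me3, and that at -15.6 kb 0.65, 0.95 and 0.76 RPKM. The first had the lowest ratio of 1000 over 100000 cells of the 15 bins, 0.352 (interval 0.208 to 0.571). The Hand1 bins at -11.4 and -13.4 kb had 0.69, 0.85 and 0.66 and 0.58, 0.95 and 0.89 RPKM. Mixl1, with little H3K27me3 at its start, had 0.92, 0.65 and 0.89 RPKM at -19.8 kb but 0.23, 0.10 and 0.20 RPKM 10.2 kb downstream, inside Lin9. The Tbx6 bin 16 kb upstream, at Gdpd3 and Mapk3, had 0.19, 0 and 0.10 RPKM, where 0 reads allow up to 0.098 RPKM.

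Set against panH3 at 1000 cells, H3K27me3 was higher by at least 1.5-fold in 4 of the 15 bins, against 11.4% of all bins, and lower in 2, against 20.8%. The 4 were the Mesp2 bin (3.84 times the panH3 mean), the Eomes bin at 13.7 kb (2.0), the Gsc bin at 18.4 kb (1.93) and the Mesp1 bin at 3.5 kb (1.71). The 2 lower bins were those of Mixl1 at 10.2 kb and of Tbx6, both over other genes. With a pseudocount of 1 RPKM in place of 0.1, 1 bin was higher. Against H3K9me3, H3K27me3 was higher by at least 1.5-fold in 11, 11 and 12 of the 15 bins at 1000, 10000 and 100000 cells, against 21.7%, 25.1% and 20.3% of all bins. It was lower by that fold in 0 of the 15 in each, against 16.2%, 23.3% and 20.5%. With a pseudocount of 1 RPKM the higher bins numbered 2, 6 and 6. Each of these comparisons has 1 H3K27me3 library and no test, and bins near 1 gene are not independent of each other. A fold between marks sets RPKM of different antibodies side by side and gives no amount of either modification.

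H3K9me3, a mark of heterochromatin, could be tested against panH3 at 1000 cells, with 3 and 2 libraries. It was lower in 11 of the 15 bins, against 24.7% of the 93575 bins tested, higher in 1, against 15.2%, and not called in 3 (limma on log2(RPKM + 0.1), Benjamini-Hochberg threshold 0.05). Without panH3 library b the lower calls numbered 7, in a fit where the lone panH3 library is assumed to vary like the H3K9me3 libraries. The median difference was -0.94 over the 15 bins and -0.10 over all bins. In 13 bins all 3 H3K9me3 libraries lay below both panH3 libraries, against 34.5% of all bins, and in 1 all lay above, against 23.3%. Several of the 15 bins adjoin each other or overlap other genes, so these counts are not of independent bins. The share among bins near other genes was not counted.

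The lowest H3K9me3 relative to panH3 was in the Mixl1 bin at 10.2 kb, inside Lin9, with 0.14, 0.13 and 0.11 RPKM in H3K9me3 libraries a, b and c against 0.68 and 0.88 RPKM in panH3 libraries a and b. The groups did not overlap, with a log2 difference of -1.95 ± 0.25 (SE; limma, Benjamini-Hochberg adjusted p = 8.24e-07). The Eomes bins at 11.7, 17.7 and 27.7 kb had differences of -1.16 ± 0.27, -1.17 ± 0.25 and -1.24 ± 0.26. There H3K9me3 averaged 0.143 ± 0.0643, 0.177 ± 0.0404 and 0.0867 ± 0.0252 RPKM (SD, n = 3) and panH3 0.430 ± 0.0424, 0.520 ± 0.0283 and 0.340 ± 0.0424 RPKM (SD, n = 2). The Eomes bin at 13.7 kb, the one with high H3K27me3, had H3K9me3 of 0.43, 0.54 and 0.48 RPKM against panH3 of 0.68 and 0.59 RPKM, a difference of -0.33 ± 0.20 that did not pass (limma, Benjamini-Hochberg adjusted p = 0.195). All 3 of its H3K9me3 libraries still lay below both panH3 libraries.

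For Hand1 the bins at -13.4 and -11.4 kb had differences of -0.89 ± 0.22 and -1.13 ± 0.23, and for Tbx6 the bin at -16 kb had -1.25 ± 0.27. For Mesp1 the bins at 19.5 and 21.5 kb had -0.94 ± 0.26 and -1.19 ± 0.26, and that at 3.5 kb had -0.72 ± 0.26, a call that 6 of the alternative settings lost. At the Mesp2 bin the groups overlapped, with 0.23, 0.50 and 0.59 RPKM of H3K9me3 against 0.42 and 0.46 RPKM of panH3, and no difference was called (-0.07 ± 0.26). The Mixl1 bin at -19.8 kb had -0.85 ± 0.23, and the Gsc bin at -15.6 kb -0.44 ± 0.23, which was not called.

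The Gsc bin at 18.4 kb was the exception among the 15. H3K9me3 had 0.68, 0.59 and 0.90 RPKM in libraries a, b and c against 0.45 and 0.39 RPKM of panH3, with no overlap and a difference of 0.65 ± 0.20 (limma, Benjamini-Hochberg adjusted p = 0.0125). The call was lost without H3K9me3 library c, without panH3 library b and with the letters as a block, where the difference stayed between 0.50 and 0.56. In the larger libraries H3K9me3 there was 1.23, 0.94 and 0.58 RPKM at 10000, 100000 and 1000000 cells, the highest of the 15 bins in each. The all-bin medians of H3K9me3 were 0.34, 0.35 and 0.35 RPKM at these cell numbers. This bin also had 2.29 RPKM of H3K27me3 at 100000 cells, equal to the Mesp2 bin as the highest of the 15. Among the 15 bins, both repressive marks were thus high in the same 2 kb at 100000 cells. In bulk chromatin, both marks on 1 copy and each mark on different copies cannot be told apart.

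**Figure D5:**
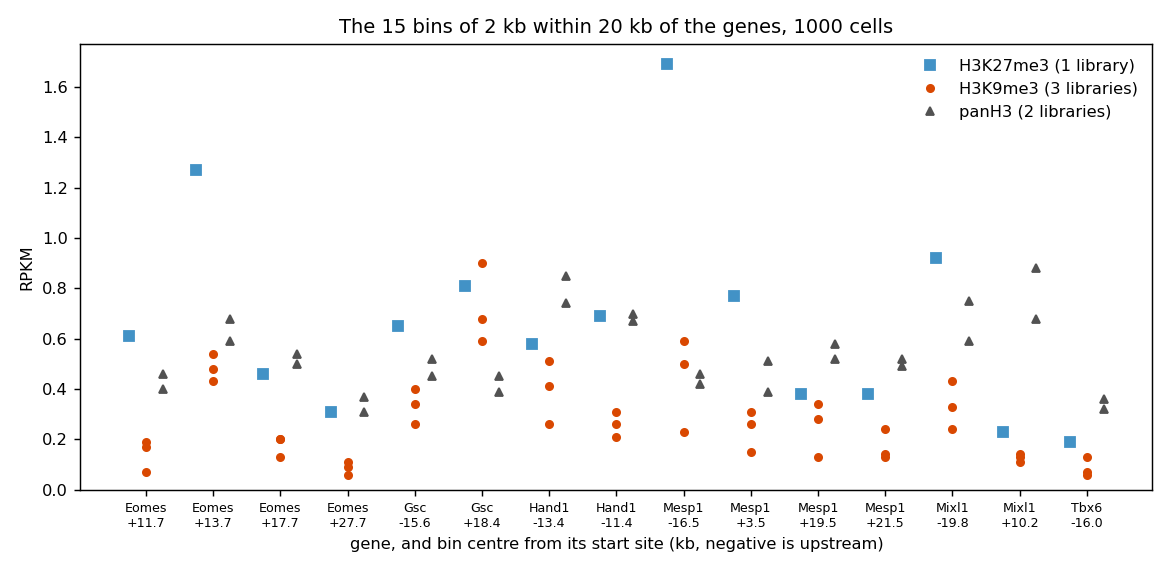
RPKM in the 15 bins of 2 kb within 20 kb of the genes, in libraries of 1000 cells, with each bin labelled by its gene and the distance of its centre from the start in kb; squares are the H3K27me3 library, circles the 3 H3K9me3 libraries and triangles the 2 panH3 libraries. H3K9me3 lies below panH3 in all libraries of 13 bins and above it in the Gsc bin at 18.4 kb.

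Other genes of the same pathways, taken from lists that leave out the 8 genes, differed in how many carried H3K27me3. Of 32 other transcription factors of the streak and mesoderm, 22 had at least 1 RPKM at 100000 cells, against 9.55% of all genes. Of the same 32, 3 had RNA of at least 1 RPKM, against 50.2% of all genes. Lhx1, a homeobox gene of the anterior streak, had 4.64 RPKM of H3K27me3, and the forkhead genes Foxc2 and Foxa2 had 3.32 and 3.29 RPKM. Tbx18, a T-box gene of somites and epicardium, had the lowest value of the list, 0.31 RPKM, near Mixl1 and Tbx6. Tcf15, a helix-loop-helix gene of somites, had the highest RNA, 30.46 RPKM, with 1.22 RPKM of H3K27me3.

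Of 25 genes of the Nodal, Wnt, BMP and FGF signals that induce the streak, 9 had at least 1 RPKM of H3K27me3 and 15 had RNA of at least 1 RPKM, against 9.55% and 50.2% of all genes. The ligand genes Wnt5a, Fgf5 and Wnt3 were highest in H3K27me3 with 2.45, 2.26 and 2.20 RPKM. Tdgf1, the Nodal co-receptor, was lowest with 0.05 RPKM and had the highest RNA of the list, 80.43 RPKM. Of 19 genes of the segmentation clock and of Notch signalling, 8 had at least 1 RPKM of H3K27me3 and 8 had RNA of at least 1 RPKM, the second a share under that of all genes. Ripply2, Hes5 and Nkd1 were highest with 3.01, 2.0 and 1.67 RPKM. Dusp6, a phosphatase gene of FGF signalling, was lowest with 0.15 RPKM, and Rbpj, the DNA-binding partner of Notch, had the highest RNA, 42.10 RPKM.

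The median profile of the 8 genes over 7 libraries (H3K27me3, H3K4me3 and RNA) was compared with each gene in both tables, by Euclidean distance on log2(RPKM + 0.1). The nearest were Gata2 (distance 0.467), Tuba8 (0.510), Otop1 (0.546), Dcdc2a (0.584) and Olfml2b (0.596). Gata2, a zinc finger factor of blood progenitors, had 1.23, 2.33 and 2.04 RPKM of H3K27me3 at 1000, 10000 and 100000 cells, 1.45 RPKM of H3K4me3 at 100000 cells and 0.26 RPKM of RNA. The 8 genes set the median profile, so their own distances are not independent of it. Among the 8 themselves Mesp1 was nearest to the median profile, at rank 10, followed by Gsc at rank 29, Hand1 at 169, T at 277 and Hes7 at 338. Eomes, Mixl1 and Tbx6 were far from it, at ranks 2367, 3864 and 6588.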

How the data were processed

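Per the labels, native ChIP-seq and RNA libraries of TT2 cells were sequenced with paired-end Illumina reads; per the submitters' processing notes BWA, SAMtools and mm9 were used. Versions, the counting tool and duplicate filters are not stated in these sources. The groups and the letters a, b and c come from the labels.

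The authors deposited RPKM, a unit named per the file headers, in separate columns for each library: 98085 bins of 2 kb in 11 libraries, 74866 H3K4me3 windows of 1 kb, and H3K27me3 within 1 kb of the start with RNA over exons for 28373 transcripts. For panH3 the header names no unit and RPKM was assumed. 2 columns of another series were not used. In bins and H3K4me3 windows over 99% of values of 0.01 to 0.99 RPKM equalled, to 2 decimals, a whole number of reads at 1 depth, where such numbers hit 1.01 to 90.9% of all hundredths (83.8% in panH3). This gave depths of 13.02 to 45.52 and 1.07 to 16.6 M reads. H3K27me3 at start sites is not in whole reads, so its reads are approximate, from the depth of the same library in the bin table. RNA depth is unknown.

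Where several rows carry a symbol, the row with the highest mean stands for the gene. H3K9me3 and panH3 at 1000 cells were compared with limma 3.58.1 in R 4.3.3 on log2(RPKM + 0.1) (robust moderation, intensity trend, two-sided, Benjamini-Hochberg over 93575 bins above 0 in at least 1 library). The fit was also run on simulated bins drawn independently, with no effect of library or chromosome, which does not check the calls in these data. All other comparisons have 1 library per group and no p-value; they carry exact 95% intervals (Poisson for a level, conditional binomial for a ratio) and a threshold of 1.5-fold on the same log2 scale, which understates the change of low genes. Motifs were counted in the 250 bases before the start. Named are the 8 genes, every bin within 20 kb, the 5 genes nearest to their median profile and, per pathway list, the 3 genes with the highest H3K27me3, that with the lowest and that with the highest RNA; genes that neighbour the 8 were added. The members and lists were chosen with earlier results of these data known. Other values came from Python 3.11.15 with scipy 1.17.1, pandas 2.3.3 and numpy 2.4.6, and figures from matplotlib 3.10.9.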

Additional observations from a re-analysis of the deposited data

How the results depend on the processing

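Each choice was changed in turn. For H3K9me3 against panH3, leaving out each library in turn gave 7 to 11 bins lower and 0 to 1 higher, with the fewest of both without panH3 library b; a lone panH3 library is then assumed to vary like the H3K9me3 libraries. Of the 5 bins within 10 kb, 4 were lower and 0 higher. With the letters a and b as a replicate block, 10 bins were lower and 0 higher; between the marks, the differences of libraries a and b correlated at -0.00955, and the labels do not tie equal letters together. The 5 bins whose call was lost in at least 1 setting were those of Mesp1 at 3.5 and 19.5 kb, Gsc at 18.4 kb, Hand1 at -13.4 kb and Mixl1 at -19.8 kb, all with their direction kept. Limited to bins that averaged 0.2 RPKM or more, 9 were lower, since the bins of Eomes at 27.7 kb and Tbx6 at -16 kb were then not tested. H3K27me3 over panH3 by 1.5-fold gave 1 of 15 bins with a pseudocount of 1 RPKM and 2 of the 5 within 10 kb. H3K27me3 over H3K9me3 gave 2 bins at 1000 cells and 6 each at 10000 and 100000 cells with that pseudocount, and 4, 3 and 3 of the 5 bins within 10 kb. The H3K4me3 median against 100000 cells reversed on centring, to -0.48 at 5000 and -0.20 at 10000 cells, and was 0.94 at 10000 cells with a pseudocount of 1. Of the 6 genes that averaged 1 RPKM or more, 0 were lower in H3K27me3 at 10000 cells, since the filter removes Mixl1 and Tbx6, the 2 that were. Among genes with RNA above 0, the RNA median of the 8 lay at the 21.8th percentile. Divided by the panH3 level of the chromosome, H3K27me3 at 100000 cells was 1.65 RPKM for Hand1 and 2.94 RPKM for Hes7. The cause of these shifts was not tested. H3K4me3 at 5000 and 10000 cells, with 0 to 23 reads per window, and H3K27me3 at Mixl1 and Tbx6 are limited by depth.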
